A study of Homo sapiens with 12 samples.

Results

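The effect of nocodazole was examined at the end of the course, when synchronized HCT116 cells without the drug leave mitosis and return to G1. The comparison used 4 of the 12 arrays of the series, chosen by their labels: nocodazole at 9 h and 10 h and DMSO at 9 h and 10 h, paired by hour. HCT116 is an established human colorectal carcinoma line. All cells received 2 mM thymidine for 19 h, a 9 h release and a second thymidine block of 16 h, after which the release medium held DMSO as the vehicle or 0.1 mg/ml nocodazole, as the labels state the dose. The other 8 arrays hold DMSO at 0, 2, 4, 6, 7 and 8 h and nocodazole at 7 and 8 h. Each condition had 1 array, so no culture was measured more than once. The spread behind each p starts from how far the differences at 9 h and at 10 h lie apart. The limma fit draws it towards the spread of other genes at a similar level. Gene expression was read on Affymetrix U133 Plus 2.0 arrays and is given as log2 signal.

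Nocodazole binds tubulin and stops microtubules from assembling, so that chromosomes cannot attach to a spindle. The spindle assembly checkpoint then keeps the anaphase promoting complex (APC/C) from destroying cyclin B and securin, and cells stay in mitosis with condensed chromosomes. Cells that pass this point divide, lose their mitotic transcripts, and load new MCM helicases on origins while E2F factors switch on the genes for the next S phase.

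Over the probe sets used, the 2 late nocodazole arrays had the lowest signal medians of the 12. The median log2 signal as deposited was 9.47 and 9.73 on the DMSO arrays at 9 and 10 h and 9.04 and 8.93 on the nocodazole arrays. Over all probe sets the late nocodazole arrays had the highest medians, 3.11 and 3.10, against 2.82 to 2.96 on the other 10. The hybridization controls BioB and BioC, bacterial transcripts that are put into every hybridization at a low amount, were lower with nocodazole in 10 of 10 probe sets, by a median of -0.87 as deposited and -0.30 after quantile normalization. At 9 and 10 h the nocodazole arrays had means of 7.98 and 8.35 over these probe sets, the DMSO arrays had 8.96 and 9.70, and the other 8 arrays lay at 8.22 to 9.15, so that DMSO at 10 h was the highest of the 12 and nocodazole at 10 h was not below all others. BioD and Cre, put in at higher amounts, differed by a median of -0.09 and -0.06. The mean of 5 other bacterial controls, which lay near background throughout, was 2.78 and 2.76 on the late nocodazole arrays and 2.48 to 2.63 on the other 10. Differences between groups are therefore given on quantile normalized values, with the deposited difference beside them. The part of background and labelling in the results was not tested, and fewer cells of a kind and less RNA per cell cannot be told apart on such arrays.

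**Figure D1:**
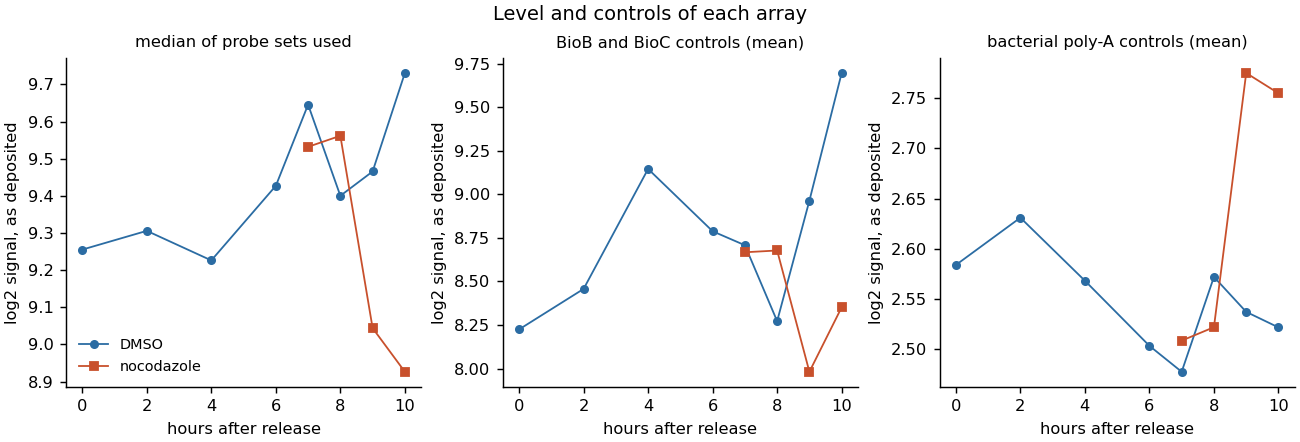
Deposited log2 signal of each array (y axis) against hours after release (x axis) for DMSO (circles) and nocodazole (squares): the median of the probe sets used, the mean of the BioB and BioC controls, and the mean of 5 bacterial poly-A controls. The nocodazole arrays at 9 and 10 h have the lowest medians of the 12, 9.04 and 8.93, and the highest values of the bacterial poly-A controls, 2.78 and 2.76.

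Genes were tested if a probe set with a single gene symbol reached 7 on the log2 scale on 2 or more arrays, which gave 7712 genes. With limma and an adjusted p under 0.05, 1138 genes (14.8%) were higher and 1153 (15%) lower with nocodazole. As deposited, 151 genes (1.96%) were higher and 2471 (32%) lower, since the median difference over all genes was then -0.47 in place of -0.02. All 151 of the former were also called higher on normalized values, and 957 of the 1153 lower genes were also called lower as deposited. At least 2-fold at both hours on normalized values were 164 genes (2.13%) upward and 175 (2.27%) downward. The groups did not overlap in 5360 of the 7712 genes (69.5%). The differences at 9 h and at 10 h had a Pearson's r of 0.82 across genes, which are not independent replicates and share the arrays' levels.

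**Figure D2:**
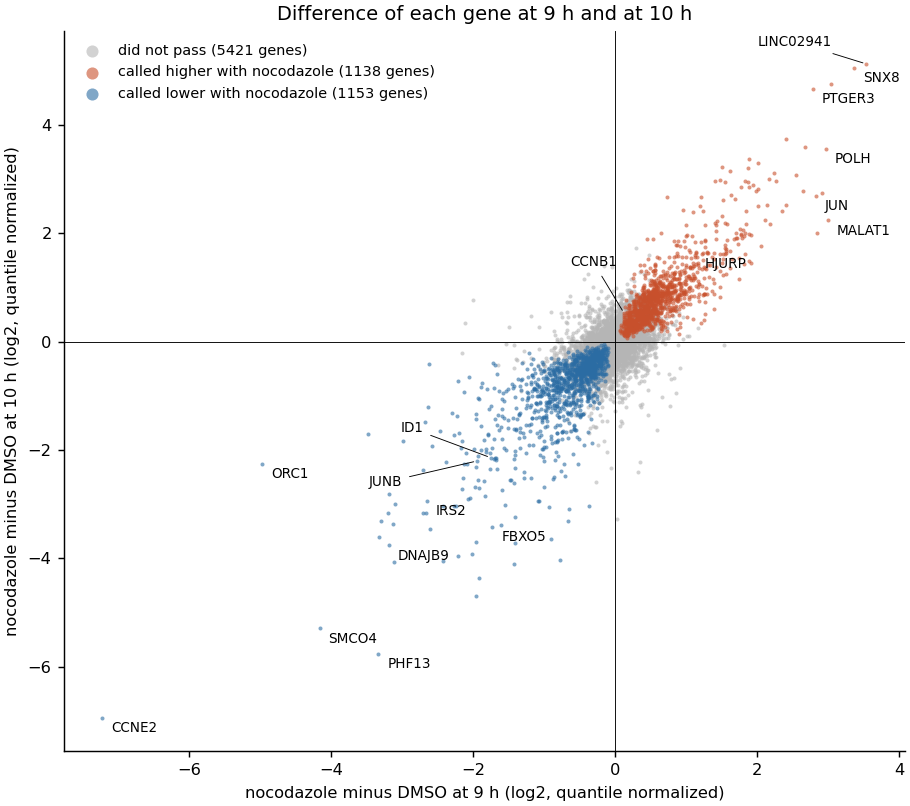
Nocodazole minus DMSO of each of the 7712 genes at 9 h (x axis) and at 10 h (y axis), in log2 units after quantile normalization, with genes called higher or lower in colour. CCNE2 lies at the lower left with a mean difference of -7.08, and the named genes that were higher lie in the upper right.

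The label of the comparison was checked with 4 marker genes. CCNB1, which encodes the cyclin of the mitotic kinase CDK1, had log2 signals of 13.77 and 13.36 with DMSO at 9 and 10 h and of 13.90 and 13.88 with nocodazole. The nocodazole arrays held the level of 8 h while the DMSO arrays were lower, and the groups did not overlap. The difference was 0.33 ± 0.08 (SE, adjusted p = 0.0213), 0.25 as deposited, where it did not pass (adjusted p = 0.396). CCNE2, the E2 member of the E cyclins that drive entry into S phase, had 10.26 and 10.51 with DMSO and 3.05 and 3.56 with nocodazole. Both nocodazole values lie near background, so the difference of -7.08 ± 0.27 (adjusted p = 1.31e-05) is not an exact size. ORC1, the largest subunit of the complex that marks origins, had 7.89 and 8.48 with DMSO and 2.93 and 6.23 with nocodazole. Its nocodazole values lay far from each other, both under DMSO, and the difference was -3.61 ± 0.55 (adjusted p = 0.00299). JUN, a subunit of the AP-1 transcription factor, had 7.65 and 7.86 with DMSO and 10.48 and 10.55 with nocodazole, a difference of 2.76 ± 0.15 (adjusted p = 4.77e-05). It was read by 1 probe set. With DMSO its level was 9.90 at 0 h and 6.63 at 7 h, so it also varied within the vehicle. CCNB1 was thus higher and CCNE2 and ORC1 lower with nocodazole, the order known for mitosis and G1. CCNE2 was already at -2.80 at 7 and 8 h, and CDK1 had a difference of 0.01 at 9 and 10 h. Of 5 tested markers of the epithelial line, EPCAM had a difference of 0.28 and KRT8 one of -0.16, both of which passed on a small spread.

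**Figure D3:**
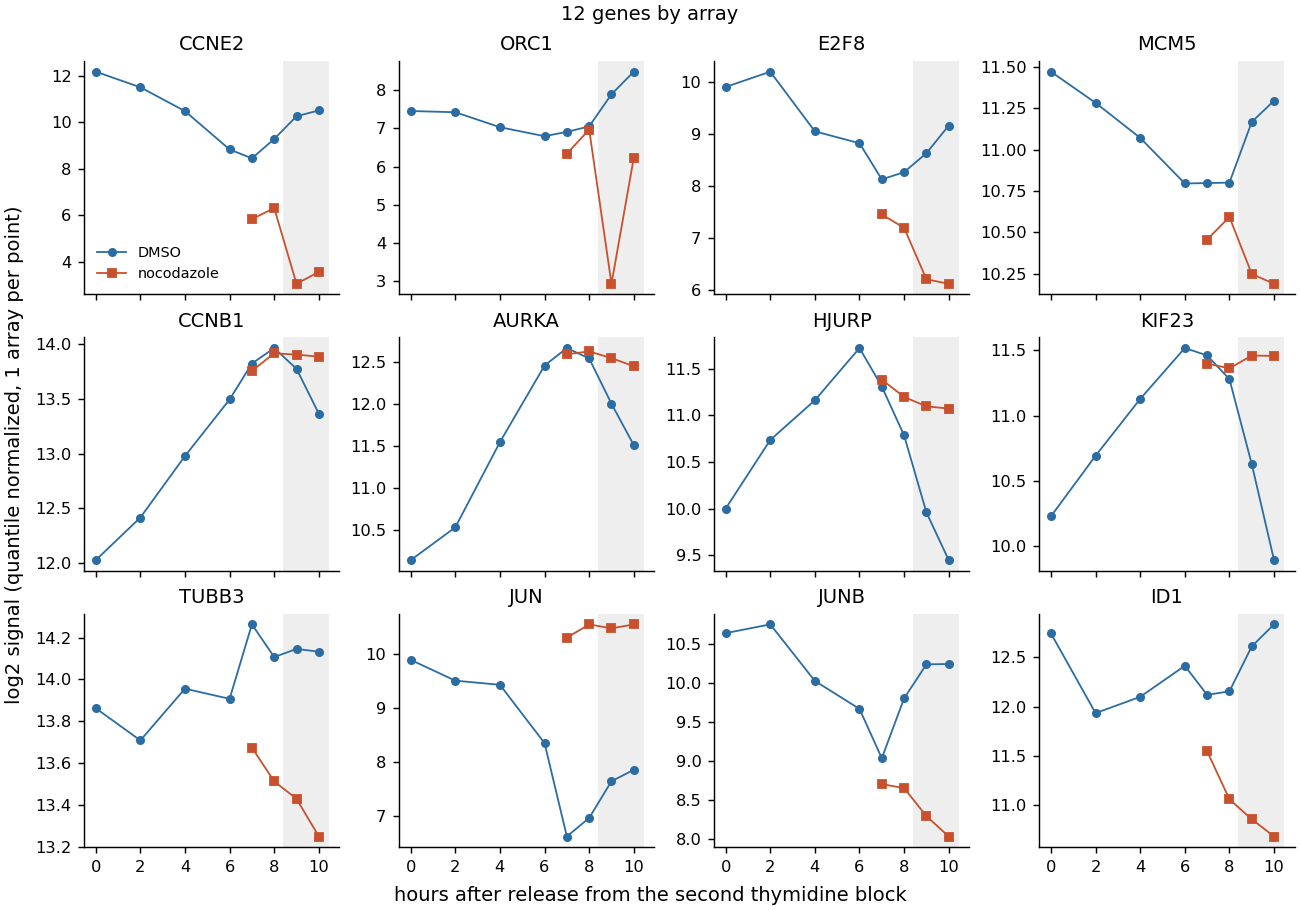
Quantile normalized log2 signal (y axis, a scale of its own in each panel, 1 array per point) against hours after release (x axis) for 12 genes with DMSO (circles) and nocodazole (squares), with 9 and 10 h shaded. CCNB1, AURKA, HJURP and KIF23 decline with DMSO after 8 h and stay up with nocodazole. CCNE2, E2F8 and MCM5 climb with DMSO. With nocodazole they fall, by -2.77, -1.16 and -0.31 from 7 and 8 h to 9 and 10 h.

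Of 78 tested genes of G1/S control and DNA replication, 34 were lower and 2 higher with nocodazole. Of 22 tested G1/S cyclins, kinases and E2F factors, 10 were lower and 1 higher (median difference -0.32, against -0.02 over all genes). The background shares are 15% lower and 14.8% higher. Of 25 genes of origin licensing and firing, 10 were lower and 1 higher (median -0.29), and of 31 genes of the fork and nucleotide synthesis, 14 were lower and none higher (median -0.23). Differences above 0, called or not, were held by 8, 7 and 6 members of these 3 lists, up to 0.89, 0.76 and 0.29. As deposited the counts of lower genes were 12, 14 and 13, beside 32% of all genes. The medians were -0.79, -0.76 and -0.63 beside -0.47 over all genes. The balance depends on the scaling. After median centring of the arrays 9, 10 and 9 genes were lower and 6, 6 and 8 higher (medians -0.18, -0.15 and -0.01, beside 0.14 over all genes). Of all 7712 genes 1125 were then lower and 2729 higher. After a shift on the hybridization controls 7, 6 and 6 were lower and 6, 5 and 7 higher (medians -0.09, -0.06 and 0.08, beside 0.23). Of all genes 648 were then lower and 2735 higher. Lower genes numbered 5, 11 and 6 without 10 h and 5, 2 and 3 without the intensity trend. At 9 and 10 h against 7 and 8 h, the median member moved by 0.13, 0.16 and 0.12 with DMSO and by -0.06, 0.02 and -0.03 with nocodazole. Some single genes fell with nocodazole by more than they climbed with DMSO. CCNE2 moved by 1.52 with DMSO and -2.77 with nocodazole, ORC1 by 1.21 and -2.07, and E2F8 by 0.70 and -1.16.

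E2F8, a repressor of the E2F family that is itself an E2F target, had 8.63 and 9.16 with DMSO and 6.21 and 6.12 with nocodazole, with a difference of -2.73 ± 0.24. CCNE1, the other E cyclin, had 10.62 and 10.78 against 9.76 and 9.61 (-1.01 ± 0.12). SKP2, the ubiquitin ligase subunit that targets p27, had a difference of -0.93. The only gene of the G1/S list that was higher was RBL2, the pocket protein p130, with 8.73 and 8.5 against 9.57 and 9.43 (0.89 ± 0.15). It did not pass as deposited, at 0.27.

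Among helicase genes, MCM5 had 11.17 and 11.30 with DMSO and 10.25 and 10.19 with nocodazole, a difference of -1.01 ± 0.10. MCM3 and MCM6, other subunits of the same ring, differed by -0.65 and -0.59. GINS2, a part of the active helicase, had 11.42 and 11.74 against 10.65 and 10.45 (-1.03 ± 0.12), and GMNN, the licensing inhibitor geminin, differed by -0.80. In none of these genes did the groups overlap, as in 69.5% of all genes. UNG, the glycosylase that removes uracil from DNA, had 11.94 and 12.39 against 10.97 and 11.05 (-1.16 ± 0.10). CHAF1A, the large subunit of the chromatin assembly factor, differed by -0.96, and POLD3, a subunit of polymerase delta, by -2.83 on a nocodazole level of 5.37 and 4.83. TK1, the thymidine kinase, had 12.67 and 12.78 against 12.26 and 12.38, a difference of -0.41, and of -0.63 as deposited, where it did not pass (adjusted p = 0.0641). DTL, the substrate receptor that marks CDT1 for destruction, differed by -1.80, and the exonuclease EXO1 by -1.25. Only 3 of the 33 replication-dependent histone genes on the array passed the filter, of which 2 were lower, H2BC12 by -0.31 and H2BC5 by -3.23 on nocodazole values near background.

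The promoters of the replication genes are shown for MCM6 and GINS2, which moved together with the list, with the letters of E2F sites in capitals. The sites searched were TTTCGCGC, TTTGGCGC, TTTCCCGC and TTTGGCGG on both strands, in the 250 bases before the first listed start of each gene in RefSeq (build GRCh38.p14). MCM6 lies at chr2:135876444-135876693 on the minus strand and GINS2 at chr16:85688955-85689204 on the minus strand.
MCM6: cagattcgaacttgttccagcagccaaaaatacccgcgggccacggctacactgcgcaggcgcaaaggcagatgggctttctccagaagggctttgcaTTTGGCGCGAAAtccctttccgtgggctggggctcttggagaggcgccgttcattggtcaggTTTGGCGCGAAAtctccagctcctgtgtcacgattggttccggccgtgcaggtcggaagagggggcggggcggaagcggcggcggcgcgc
GINS2: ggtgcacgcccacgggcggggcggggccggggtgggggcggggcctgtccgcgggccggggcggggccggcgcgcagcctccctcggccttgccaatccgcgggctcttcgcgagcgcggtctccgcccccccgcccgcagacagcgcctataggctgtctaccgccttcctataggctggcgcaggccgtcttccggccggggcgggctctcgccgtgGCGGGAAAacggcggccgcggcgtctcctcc
MCM6 held 4 matches, which overlap in pairs, and GINS2 held 1. Of the 34 lower members of the replication lists, 28 had a promoter in the table and 9 of these (32.1%) held an E2F site. The shares were 2.91% of all 27305 promoters, 5.16% of the promoters of tested genes and 29.9% of all tested members of the lists. The share among lower members was thus near that of the lists as a whole. A match is a run of letters and not a bound site.

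Of 90 tested genes of mitosis, 40 were higher and 2 lower with nocodazole. Among 19 mitotic cyclin and kinase genes, 8 were up with the drug and none down (median 0.29). Among 25 genes of mitotic kinesins and spindle proteins, 14 were up and none down (median 0.27), and of 15 genes of cytokinesis and chromosomal passengers, 8 were higher and none lower (median 0.45). Of 31 genes of the spindle checkpoint and kinetochore, 10 were higher and 2 lower (median 0.20). In this list 20 differences lay above 0 and 11 below, down to -0.85. The background is 14.8% higher. As deposited only 0, 2, 1 and 1 genes of these 4 lists were higher, in that order, and 2, 1, 0 and 6 lower. Over all genes 1.96% were then higher and 32% lower. The medians of the lists were -0.06, -0.01, 0.00 and -0.24, each above the -0.47 of all genes. The median member of the first 3 lists moved with DMSO by -0.33, -0.35 and -0.43 from 7 and 8 h to 9 and 10 h, and changed by -0.09, -0.13 and 0.06 with nocodazole, while that of the checkpoint and kinetochore list moved by -0.18 and -0.12. Higher genes of the 4 lists numbered 6, 7, 5 and 4 without 10 h and 0, 3, 0 and 4 without the intensity trend.

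AURKA, the kinase of centrosomes and spindle poles, had 12.01 and 11.52 with DMSO and 12.55 and 12.45 with nocodazole, a difference of 0.74 ± 0.10. TTK, the kinase MPS1 that starts checkpoint signalling, had 10.21 and 9.63 against 10.95 and 10.92 (1.02 ± 0.14). NEK2, a centrosome kinase, and CCNA2, cyclin A2, differed by 0.70 and 0.57. None of these 4 kinase and cyclin genes passed as deposited, where their differences were 0.37 to 0.53 and kept their direction. CDK1, CCNB2 and PLK1, also in the mitotic lists, had differences of 0.01, -0.03 and 0.20 and were not called higher. HJURP, the chaperone that loads the centromeric histone CENPA, had 9.96 and 9.45 against 11.10 and 11.07 (1.38 ± 0.13, and 0.90 with an adjusted p of 0.0114 as deposited). SGO2, a protector of centromeric cohesion, differed by 1.15 and passed on normalized values alone. MAD2L1, the checkpoint protein MAD2, had 13.57 and 13.29 against 13.83 and 13.72, but 1 of its 3 probe sets carried that direction and the mean of them gave -0.06.

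KIF18B, a kinesin of astral microtubules, had 10.97 and 10.59 with DMSO and 11.90 and 11.90 with nocodazole, a difference of 1.12 ± 0.10 (0.75 as deposited, adjusted p = 0.0419). KIF18A, which limits chromosome movements at the spindle equator, differed by 1.15, and CKAP2L, a spindle protein, by 1.35. KIF23, the central spindle motor MKLP1 needed for cytokinesis, had 10.63 and 9.89 against 11.46 and 11.46 (1.2 ± 0.16, 0.77 as deposited, adjusted p = 0.037). The 2 nocodazole values of KIF23 and KIF18B were equal to 2 decimals while the DMSO values declined from 9 to 10 h. RACGAP1, the partner of KIF23, differed by 0.45, ANLN, the cleavage furrow protein anillin, by 0.61, and CDCA8, the chromosomal passenger borealin, by 0.87. GAS2L3, which links actin to microtubules, had 10.49 and 9.37 against 11.49 and 11.31 (1.47 ± 0.19), and TROAP, a spindle protein, differed by 1.33.

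The promoters of HJURP and KIF23 are shown because the cell cycle homology region (TTTGAA or TTCGAA) and the CCAAT box (CCAAT) are the elements known from mitotic genes. Both were searched on both strands, and their letters are in capitals. HJURP lies at chr2:233854536-233854785 on the minus strand and KIF23 at chr15:69414099-69414348 on the plus strand of GRCh38.p14.
HJURP: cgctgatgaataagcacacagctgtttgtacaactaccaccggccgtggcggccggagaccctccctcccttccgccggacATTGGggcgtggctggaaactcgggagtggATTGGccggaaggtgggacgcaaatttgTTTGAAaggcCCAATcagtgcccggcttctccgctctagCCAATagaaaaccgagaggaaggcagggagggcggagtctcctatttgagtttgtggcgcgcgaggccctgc
KIF23: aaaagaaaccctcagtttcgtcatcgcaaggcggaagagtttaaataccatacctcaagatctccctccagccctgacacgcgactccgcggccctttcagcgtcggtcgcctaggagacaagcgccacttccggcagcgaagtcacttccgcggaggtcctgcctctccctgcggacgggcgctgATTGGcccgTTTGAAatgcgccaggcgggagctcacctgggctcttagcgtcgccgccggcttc
HJURP held 1 homology region and 4 CCAAT boxes, and KIF23 held 1 of each. Of the 40 members of the mitotic lists that were higher, 34 had a promoter, of which 13 (38.2%) held a homology region and 23 (67.6%) a CCAAT box. Of all promoters 14.6% and 33.0% did, and of the promoters of tested genes 9.66% and 35.9%. Of all tested members of the lists 36.8% and 65.8% did.

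Of 18 genes of the APC/C list, 3 were higher and 4 lower (median -0.05), beside 14.8% and 15% of all genes. FBXO5, the APC/C inhibitor EMI1 and an E2F target, had 10.87 and 11.20 with DMSO and 9.14 and 7.78 with nocodazole, a difference of -2.57 ± 0.32. ESPL1, the protease separase, had 10.29 and 10.06 against 10.84 and 10.85 (0.67 ± 0.11) and did not pass as deposited. Of 10 genes of condensin, TOP2A and MKI67, 3 were higher and 1 lower (median 0.01). TOP2A, the topoisomerase of mitotic chromosomes, had 11.47 and 11.75 against 12.86 and 12.36 (1.0 ± 0.15), with 1 of 2 probe sets in that direction. MKI67, the proliferation antigen Ki-67, differed by 0.32, with 4 of 4 probe sets above 0 on normalized values and 1 of 4 as deposited.

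All 10 alpha and beta tubulin genes that passed the filter were lower with nocodazole on normalized values, with a median of -0.58. As deposited 6 were lower (median -0.63, against -0.47 over all genes). Over all genes 15% were lower on normalized values and 32% as deposited. The direction of the family depends on the scaling. After median centring of the arrays the list's median was -0.02 with 4 lower and none higher, beside 0.14 over all genes. Of all 7712 genes 1125 were then lower and 2729 higher. After a shift on the hybridization controls the list's median was 0.07 with 2 lower and 3 higher, beside 0.23 over all genes. Of all genes 648 were then lower and 2735 higher. Without the intensity trend 2 of the 10 were called lower, at the same median. Tubulin messages are known to be destroyed when free tubulin dimers rise. TUBB3, a class III beta tubulin, had 14.15 and 14.13 with DMSO and 13.43 and 13.25 with nocodazole, a difference of -0.80 ± 0.06 (-0.84 as deposited). TUBA4A, an alpha tubulin, had 12.25 and 12.18 against 11.24 and 11.26 (-0.97 ± 0.08). TUBB, the main beta tubulin, had 14.53 and 14.41 against 13.95 and 13.64 (-0.67 ± 0.06). No tubulin of the list overlapped between groups, as 69.5% of all genes did not. TUBB4A had the largest difference, -2.50, at the lowest level. The remaining members were TUBA1A (-0.61), TUBB4B (-0.54), TUBB2A (-0.41), TUBB6 (-0.33), TUBA1B (-0.30) and TUBA1C (-0.29). Probe sets of these close paralogs can share transcripts, so the values are not independent. At 7 and 8 h the median of the 10 genes was -0.58 as well. Of 6 genes for gamma, delta and epsilon tubulins and ring proteins, 1 was lower and none higher (median -0.04), which was TUBG1, the gamma tubulin of centrosomes, at -0.43.

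Of 26 tested AP-1 and immediate early genes, 4 were higher and 7 lower (median -0.12), beside 14.8% and 15% of all genes. As deposited 1 was higher, JUN, and 13 lower, beside 1.96% and 32% of all genes. CCN1, a matricellular protein, had 10.84 and 10.91 with DMSO and 11.71 and 11.67 with nocodazole (0.81 ± 0.09, 0.43 as deposited, where it did not pass). JUNB, a partner of JUN in AP-1, had 10.24 on both DMSO arrays and 8.30 and 8.04 with nocodazole, a difference of -2.07 ± 0.15. JUN and JUNB thus lay on opposite sides of 0 under each of the 4 scalings. ZFP36, which destabilizes messages with AU-rich elements, had 10.01 and 10.09 against 8.76 and 8.86 (-1.23 ± 0.13), and IER3 differed by -0.81. Of 8 genes of feedback on MAP kinases, 2 were higher and 2 lower. DUSP6, the ERK phosphatase, had 12.14 and 11.92 against 10.90 and 10.75 (-1.21 ± 0.08), and SPRY4, an inhibitor of receptor signalling, 9.91 and 9.57 against 8.26 and 8.22 (-1.50 ± 0.16). DUSP4, another MAP kinase phosphatase, differed by 0.44 and by 0.06 as deposited.

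The promoter of JUN, at chr1:58784048-58784297 on the minus strand of GRCh38.p14, is shown because JUN is known to act on its own promoter. The letters of AP-1 and CRE sites (TGACTCA, which reads TGAGTCA on the other strand, as well as TGACGTCA, TGACATCA and TTACCTCA, on both strands) are in capitals.
JUN: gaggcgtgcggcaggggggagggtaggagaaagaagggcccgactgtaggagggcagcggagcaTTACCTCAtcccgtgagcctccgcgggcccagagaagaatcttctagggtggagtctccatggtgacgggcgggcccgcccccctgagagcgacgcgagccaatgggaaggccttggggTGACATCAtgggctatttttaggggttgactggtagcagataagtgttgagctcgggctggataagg
It held 2 matches. Of all promoters 8.76% held at least 1 such run, and of the promoters of tested genes 6.92%.

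The ID genes and the feedback genes of TGF-beta and BMP signalling were lower in 5 of 6 tested genes and higher in none, with a median of -1.22. Over all genes 15% were lower and 14.8% higher. The count was also 5 of 6 as deposited and after median centring, when 2471 and 1125 of all 7712 genes were lower. ID1, which keeps basic helix-loop-helix factors from DNA, had 12.61 and 12.83 with DMSO and 10.86 and 10.69 with nocodazole, a difference of -1.95 ± 0.10 (-2.32 as deposited). ID2, of the same family, had 13.62 and 13.87 against 12.33 and 12.11 (-1.52 ± 0.10), and ID3 differed by -0.78. Both ID1 and ID2 lay more than 1 log2 unit under the lowest DMSO value of the pair. SKIL, a repressor of SMAD signalling, differed by -1.99, and TGIF1, another one, by -0.92. Of 5 NF-kB targets, 3 were lower and none higher (median -0.94): NFKBIA, the inhibitor of NF-kB, by -0.94, NFKB1 by -1.0 and TNFAIP2 by -1.10. Each of these 3 stopped passing in at least 1 of the fits that leave out an hour. Of 6 Wnt targets, 1 was higher, the adhesion receptor CD44 (0.41, with 5 of 7 probe sets above 0), and 2 were lower. AXIN2, a scaffold of the beta-catenin destruction complex, had 8.56 and 8.77 against 6.99 and 7.83 (-1.25 ± 0.22).

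Of 22 p53 targets, 3 were higher and 4 lower (median 0.01), beside 14.8% and 15% of all genes. POLH, the DNA polymerase eta that copies past pyrimidine dimers, had 8.68 and 8.30 with DMSO and 11.65 and 11.86 with nocodazole, a difference of 3.26 ± 0.15. Its other probe set differed by 0.43, and by -0.07 as deposited. Between the DMSO arrays at 7 and 8 h POLH differed by 1.67. PMAIP1, the BH3-only protein NOXA, had 12.28 and 12.49 against 12.93 and 12.73 (0.45 ± 0.09), PPM1D, a phosphatase that acts back on p53, differed by -0.76, and TP53INP1 by -3.04 on nocodazole values at background. Of 11 genes of the BCL2 family, 4 were higher and 1 lower (median 0.20). BIK, a killer protein, differed by 0.66, and the guardians MCL1 and BCL2L1 by 0.39 and 0.40, of which MCL1 had 1 of 3 probe sets at -0.51 and BCL2L1 was at -0.01 as deposited. BID, which links caspase 8 to mitochondria, differed by -0.69, with 2 of 3 probe sets in that direction. As deposited none of the 4 was called higher, and on means of probe sets 3 members were higher and 4 lower (median -0.24).

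Of 17 genes of ATF4 and the unfolded protein response, 6 were lower and 1 higher (median -0.25), beside 15% and 14.8% of all genes. DNAJB9, a chaperone of the endoplasmic reticulum, had 8.37 and 8.71 with DMSO and 5.19 and 4.95 with nocodazole, a difference of -3.47 ± 0.28, and HERPUD1, a part of the degradation machinery there, differed by 0.54. Of 14 heat shock chaperones, 4 were higher and 2 lower (median 0.06), with DNAJB1 at 0.42 and HSPB1 at -0.21. Of 17 genes of cholesterol synthesis and SREBP, 6 were higher and 2 lower (median 0.26), against 1 higher and 4 lower as deposited. HMGCS1, the HMG-CoA synthase, had 9.01 and 8.87 against 10.01 and 9.93 (1.03 ± 0.13), and MVK, mevalonate kinase, differed by 1.40, while SREBF1, the transcription factor SREBP1, had 8.16 and 8.12 against 7.06 and 7.11 (-1.05 ± 0.21). Of 14 genes of hypoxia and glycolysis, 3 were higher, among them NDRG1 (0.56), and 5 lower, among them ADM (-0.52).

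Constitutive groups had medians near 0. Over all genes 14.8% were higher and 15% lower. Of 55 ribosomal protein genes, 4 were higher and 7 lower (median -0.03), with RPS25 at 0.19 and RPLP1 at -0.21. Of 67 subunits of oxidative phosphorylation, 6 were higher and 9 lower (median -0.04), with ATP5IF1, an inhibitor of the ATP synthase, at 0.28 in 1 of 3 probe sets and NDUFA8 at -0.72. Of 31 proteasome subunits, 8 were lower and none higher (median -0.12), with PSMD8 at -0.45. After median centring 54 of the 55 ribosomal genes and 19 of the proteasome subunits were called higher, as were 2729 of all 7712 genes. No direction of these groups thus holds under each scaling. The deposited difference depended on the level of a gene, with a median of -0.66 for genes at a mean of 8 to 9 and of -0.13 for those at 12 and over, while the normalized medians were -0.02 and -0.01. Of 17 CLK kinases and SR splicing factors, 1 was higher, TRA2A (0.29), and 1 lower, SRSF1 (-0.28). Of 14 genes of the nuclear lamina and envelope, 3 were higher and 1 lower, which was LMNB2, lamin B2, at -0.59. Of 114 ZNF genes, 27 were higher and 18 lower (median 0.13), with ZNF160 at 1.94 and ZNF581 at -1.93. As deposited 8 were higher and 40 lower, beside 1.96% and 32% of all genes (median -0.41, beside -0.47 over all genes). Of 11 markers of leukocytes, fibroblasts and endothelium on the array, 1 passed the filter, COL1A1, which differed by 1.0 in 1 of 2 probe sets, and the other 10 did not reach the filter on 2 arrays.

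**Figure D4:**
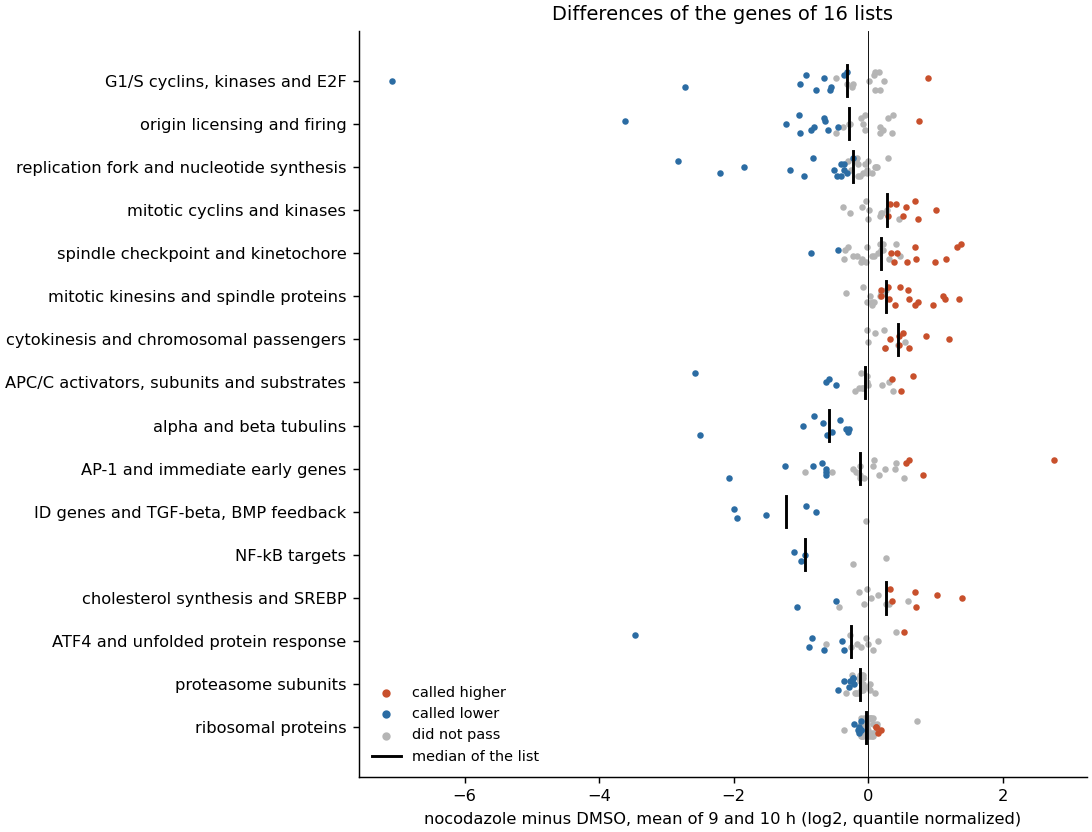
Nocodazole minus DMSO (mean of 9 and 10 h, log2, quantile normalized, x axis) of the tested genes of 16 lists (rows), with black bars at the medians and colours for genes called higher or lower. The medians of the replication lists lie at -0.32 to -0.23, those of the 4 mitotic lists at 0.20 to 0.45, and that of the tubulins at -0.58.

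The cell cycle signature (CCS) genes of the study were grouped by the phase of their peak. Of 64 tested S genes, 26 were lower and 1 higher (median -0.26), beside 15% and 14.8% of all genes. Of 18 G1/S genes, 7 were lower and 1 higher (median -0.26), and of 29 G1 genes, 11 were lower and 2 higher (median -0.19). Of 61 M genes, 24 were higher and 3 lower (median 0.20), and of 43 G2 genes, 20 were higher and 3 lower (median 0.28). Of 18 M/G1 genes, 4 were higher and 3 lower, and of 7 S/G2 genes, 2 were higher and none lower. As deposited, 32 of the S genes were lower and none higher, 2 of the M genes were higher and 3 lower, and 4 of the G2 genes were higher and 6 lower. Over all genes 1.96% were then higher and 32% lower. After median centring 15 S genes were higher and 24 lower, beside 2729 and 1125 of all 7712 genes. After the shift on hybridization controls 17 were higher and 15 lower, beside 2735 and 648 of all genes. Without 10 h 17 S genes were lower, and 13 M and 13 G2 genes higher. The median G2 gene moved by -0.39 with DMSO from 7 and 8 h to 9 and 10 h and by -0.17 with nocodazole. Members of these groups are partly the same as those of the lists above.

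The largest differences included members of the lists, with CCNE2 the largest drop of all and ORC1 and H2BC5 among the 15 largest. Other large drops belonged to BLM, a helicase of recombination (-3.14), to SMCO4, with 7.41 and 7.86 on the DMSO arrays and 3.25 and 2.57 on the nocodazole arrays, and to PHF13, a PHD finger protein of chromatin condensation, with 10.41 and 10.61 against 7.07 and 4.84. EGFL7 (-3.59), PI4KA (-3.46) and MARS2 (-3.09), the mitochondrial methionyl-tRNA synthetase, were among them. Of the 15 genes with the largest drops, 14 were also below 0 at 7 and 8 h, with a median of -0.33. Over all 7712 genes 4144 were, with a median of -0.01. Median levels of these 15 were 7.66 with DMSO and 4.08 with nocodazole. Sizes are not exact where the nocodazole value is near background.

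The 15 largest rises were led by LINC02941, with 5.98 and 4.62 on the DMSO arrays and 9.52 and 9.74 on the nocodazole arrays, and SNX8, a sorting nexin, with 5.35 and 3.74 against 8.73 and 8.79. PTGER3, a prostaglandin receptor, had 9.16 and 7.42 against 11.94 and 12.09, and MUC5AC, a secreted mucin, differed by 3.07. PPM1H, a phosphatase, had 7.37 and 6.6 against 10.05 and 10.19 (3.13 ± 0.23), while its other probe set differed by 0.20 and by -0.35 as deposited, and PRKD2, a protein kinase D, differed by 2.62 in 1 of 3 probe sets. JUN and POLH were also among the 15. Some of the 15 reached 7 on normalized values only on the late nocodazole arrays, so the filter kept them through the group where they were high. Genes of this set also varied between arrays of the same treatment. With DMSO at 0 h, LINC02941 had 9.11, SNX8 8.06, PTGER3 11.19 and MUC5AC 9.24, each above its DMSO levels at 9 and 10 h. From 7 to 8 h with DMSO, 15 of the 15 were higher at 8 h and 11 of them by at least 1 log2 unit, against 50 of all 7712 genes (0.648%). At 7 and 8 h 12 of the 15 had a difference below 0, against 4144 of all 7712 genes. In the deposited values the bacterial poly-A controls also stood higher at 8 h than at 7 h with DMSO (2.57 and 2.48), as they did on the late nocodazole arrays. The part of background in these rises was not tested.

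After these values were seen, the largest differences were also taken among the 3337 genes with a mean level of at least 10, of which 464 were called higher and 471 lower in the fit of all 7712 genes. MALAT1, a nuclear long noncoding RNA, had 10.60 and 11.13 with DMSO and 13.60 and 13.37 with nocodazole, a difference of 2.62 ± 0.15 (2.40 as deposited), and 10 of 10 probe sets were above 0. The groups did not overlap, but with DMSO the level was 13.41 at 7 h and 10.56 at 8 h, so it also varied within the vehicle. GAS2L3, HJURP, TROAP, KIF23, SGO2 and KIF18B were among the 15 largest rises at these levels. The 15 largest drops at these levels held FBXO5, ID1, DTL, ID2, EXO1, DUSP6, UNG and GINS2. PDE4B, a cAMP phosphodiesterase, was another of them, with 10.65 and 10.94 against 9.45 and 9.40 (-1.37 ± 0.13). All 15 were also below 0 at 7 and 8 h, against 4144 of all 7712 genes. Over all levels, 824 called genes had more than 1 probe set above the filter, and in 543 of them all probe sets had the same direction. Of all tested genes, 2949 had more than 1, and in 1594 of them all had the same direction.

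The difference at 9 and 10 h was set against that at 7 and 8 h, when DMSO cells were themselves passing through mitosis. The interaction of the 8 arrays uses the late arrays again, so its overlap with the late calls is in part built in. It called 278 genes (3.6%), 154 upward and 124 downward, with 273 of them among the 2291 of 7712 called at 9 and 10 h. The count depended on single hours, with 12 genes without 8 h, 81 without 10 h, 178 without 7 h and 743 without 9 h. CCNE2 had a difference of -2.80 at 7 and 8 h, and it widened by -4.29 ± 0.33 (adjusted p = 0.00248). HJURP had 0.24 there and KIF23 0.01, and they changed by 1.14 and 1.19. ORC1 had -0.33, and its change of -3.28 did not pass (adjusted p = 0.053). JUN differed more at the earlier hours, by 3.63, and its change was -0.87 (adjusted p = 0.0495). For no alpha or beta tubulin did the change of the difference pass, with changes of -0.76 to 0.16. The 10 genes with the smallest p were CMBL, CCNE2, SOWAHC, PPM1H, SLC12A1, PTPN6, SMCO4, TRIM38, SPN and IRS2. CMBL, a hydrolase, had 10.63 and 10.71 with DMSO and 12.14 and 12.15 with nocodazole, in 1 of 2 probe sets, after a difference of 0.05 at 7 and 8 h. IRS2, the insulin receptor substrate, had 8.15 and 9.08 against 5.49 and 6.14, after -0.16. Across all genes the differences at the earlier and later hours had a Pearson's r of 0.31, as a description over genes of 8 arrays.

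**Figure D5:**
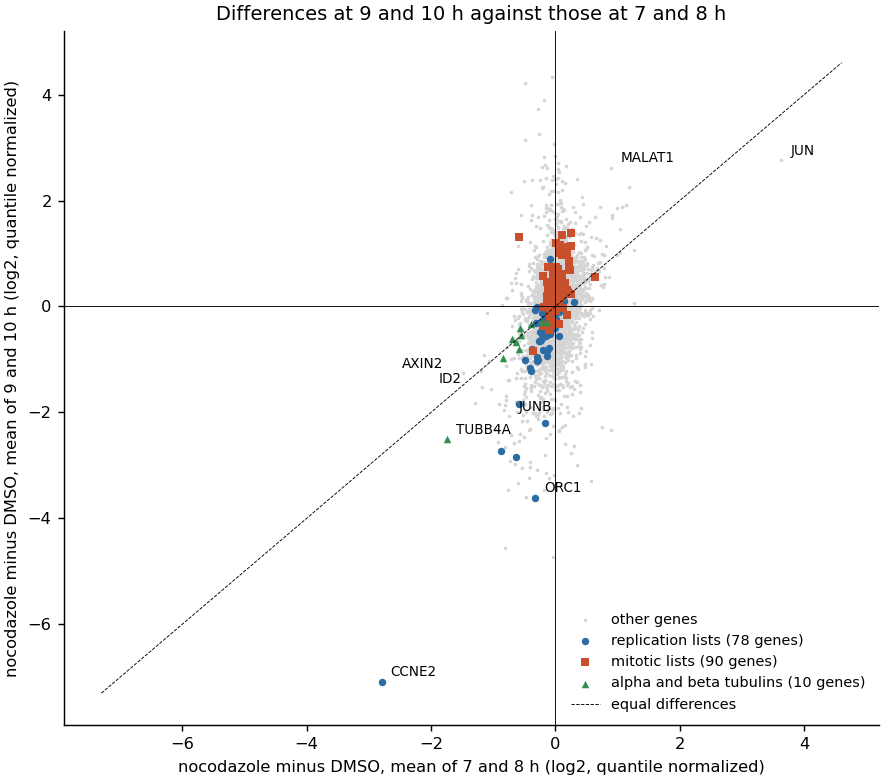
Nocodazole minus DMSO at 9 and 10 h (y axis) against that at 7 and 8 h (x axis), means of log2 differences after quantile normalization, for all tested genes in grey and the genes of the replication lists (circles), the mitotic lists (squares) and the tubulins (triangles). Tubulins and JUN lie near the dashed line of equal differences or beyond it, while the mitotic and most replication genes lie near 0 on the x axis.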

How the data were processed

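Gene expression was measured on 12 arrays, 1 per condition, of which 4 were compared. For each probe set the authors deposited a log2 signal from GC-RMA. Its version is not given in the sources used here, and that the scale is log2 was inferred from how far the values reach. Medians over all 54675 probe sets were 2.82 to 3.11. No 2 arrays held the same values, and 0 columns belonged to other samples. Precision is limited by the number of arrays.

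Of the probe sets, 41097 had 1 gene symbol in the array's annotation, 1801 had several and 11777 lacked any. Singly annotated probe sets that reached a deposited log2 value of 7 on 2 or more arrays were used (12085 probe sets, 7712 genes), and the one with the highest mean represented its gene. All probe sets of the 12 arrays were quantile normalized. Each gene was fitted in limma 3.58.1 (R 4.3.3) with hour as a block, an intensity trend and Benjamini-Hochberg adjustment over all genes at 0.05. Since cultures were not repeated, p-values measure only the spread between these arrays. The interaction used the 8 arrays of 7 to 10 h. The fits were tested on simulated data. Python 3.11.15, numpy 2.4.6, pandas 2.3.3 and matplotlib 3.10.9 were used for the rest.

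Members and lists were chosen with earlier results of these data known. Genes named were the 4 markers, the 15 largest differences in each direction that passed without overlap and with the deposited sign, up to 5 called members of each list or 2 where none was called, all alpha and beta tubulins above the filter, and the 10 smallest p of the interaction. Genes with a mean of at least 10 were ranked after the values were seen. CDK1, CCNB2 and PLK1 were added for contrast, outside this rule. Alternatives were the deposited values, median centring, a shift on the hybridization controls, other filters, averaging the probe sets of a gene, no trend, no hour block, a spread from 8 arrays, and each hour left out.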

Additional observations from a re-analysis of the deposited data

Results flagged for a closer look

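The difference between nocodazole and DMSO was not the same at 7 and 8 h as at 9 and 10 h in 278 genes by the interaction. Those named above that were also called at 9 and 10 h are listed here with the size of the change on the log2 scale. Among genes of G1/S and replication it was -4.29 for CCNE2, -1.86 for E2F8, -0.74 for MCM5, -0.75 for UNG, -0.40 for TK1 and 0.97 for RBL2. Among mitotic kinases and cyclins it was 0.74 for AURKA, 0.73 for NEK2, 0.94 for TTK and 0.61 for CCNA2.

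Among kinetochore and checkpoint genes the change was 1.14 for HJURP, 1.08 for SGO2 and 0.46 for MAD2L1. Among spindle and cytokinesis genes it was 0.97 for KIF18B, 0.89 for KIF18A, 1.24 for CKAP2L, 1.19 for KIF23, 0.51 for RACGAP1, 0.62 for ANLN, 1.29 for GAS2L3 and 1.22 for TROAP. TOP2A changed by 1.0 and ESPL1 by 0.70. All of these mitotic genes had differences within 0.26 of 0 at 7 and 8 h.

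Among early genes and signalling genes the change was -0.87 for JUN, -1.33 for JUNB, -0.50 for IER3, -1.11 for ID1, -1.06 for PDE4B and -2.63 for IRS2. JUN is the 1 gene of these whose difference was larger at 7 and 8 h. Among the genes with large differences it was -3.74 for PHF13, -4.69 for SMCO4, -3.12 for EGFL7, -3.27 for PI4KA, -2.80 for MARS2, -2.70 for DNAJB9, -3.87 for SOWAHC and -1.73 for ZNF581. It was 3.53 for POLH, 4.38 for LINC02941, 4.70 for SNX8, 4.01 for PTGER3, 3.63 for PPM1H, 2.75 for PRKD2, 1.49 for ZNF160, 1.43 for CMBL, 1.99 for SLC12A1, 1.75 for PTPN6, 1.90 for TRIM38 and 1.77 for SPN. Small changes passed for KRT8 (-0.36), PSMD8 (-0.46), RPS25 (0.33) and ATP5IF1 (0.46).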

How the results depend on the processing

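Genes called higher numbered 1138, and 151 as deposited, 2729 after median centring, 2735 after a shift on the hybridization controls, 325 without the intensity trend and 333 when the 3337 genes with a mean of at least 10 were fitted alone (chosen after seeing the data). Genes called lower numbered 1153, and 2471, 648 after the shift, 311 and 309 in the same settings, with 1125 after median centring. With no filter limma called 0 in each direction, with 9057 of 19775 genes at an unadjusted p under 0.05 and the cause not tested. Leaving out an hour gave 385 to 933 higher and 504 to 991 lower, the fewest without 10 h, where the lone pair is assumed to vary like the pair at 7 and 8 h. Without the hour block, 1187 were higher and 1153 lower, and other alternatives stayed within 1.5 times.

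The interaction called 278 genes, and 1742 as deposited, 1582 after median centring, 719 with a filter at 5, 520 on means of probe sets, 2 with no filter, 2 without the trend and 415 without the hour block. Leaving out an hour gave 12 to 743.

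Of 1485 repeats of the 118 named genes that passed, 1182 kept direction and call, 278 kept direction without the call and 25 turned. After median centring TUBB4B was at 0.047, TUBA1B at 0.29, TUBA1C at 0.29, TUBB2A at 0.061, TUBB6 at 0.18, KRT8 at 0.44, SRSF1 at 0.29, HSPB1 at 0.34 and RPLP1 at 0.52. After the shift on hybridization controls these 9 were at 0.14, 0.38, 0.38, 0.15, 0.27, 0.53, 0.38, 0.43 and 0.61, with TK1 at 0.074, TUBB at 0.0055 and PSMD8 at 0.068. As deposited BCL2L1 was at -0.013 and TRA2A at -0.061, and the means of probe sets gave -0.0597 for MAD2L1 and -1.43 for ATP5IF1.

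Of 38 lists with tested members, the balance of higher against lower calls turned in 12 as deposited, in 8 after median centring, in 13 after the shift on hybridization controls, in 4 on means of probe sets, in 2 with the spread of 8 arrays, in 1 among genes with a mean of at least 10, in 2 without 9 h and in 4 without 10 h. With no filter there were no calls to compare, and it turned in none with the other filters, without the intensity trend or without the hour block.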
